A study of Rattus with 12 samples.

Results

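Collagens, laminins and nidogens are the structural chains of the extracellular matrix, and 55 of the 42915 rows in the deposited gene table carry one of them by symbol. They were chosen by name alone: every row holding a collagen alpha chain, a laminin alpha, beta or gamma chain, or a nidogen. Of these, 18 build the basement membrane network (type IV collagen, laminins and nidogens), 11 are fibrillar collagen chains and 26 are other collagen chains. RNA came from medullary thick ascending limbs, the salt-reabsorbing tubule segment of the outer medulla, picked by hand under a microscope after digestion of the kidney. All animals were males of 7 weeks, kept on 0.4% NaCl chow since weaning, with no other treatment. Dahl salt-sensitive rats (SS/JrHsdMcwi, here SS) gave 6 libraries, each from 1 animal. Consomic rats (SS-Chr 1BN/Mcwi, here SS.BN1), which carry chromosome 1 of the Brown Norway strain on the SS background, gave the other 6. Lama2 and Col17a1 were the 2 members on that chromosome, and neither reached the authors' test.

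A basement membrane is the thin sheet on which an epithelial tubule sits. Laminin trimers, each of an alpha, a beta and a gamma chain, and trimers of type IV collagen form its networks, and nidogens link them. Fibrillar collagens instead make the cable-like fibres of the interstitium and are mainly products of fibroblasts and related stromal cells. Type IV collagen in the kidney exists as trimers of the alpha 1 and alpha 2 chains and as trimers of the alpha 3, alpha 4 and alpha 5 chains, and loss of the latter causes Alport syndrome in humans.

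Libraries held 42.3 to 59.8 M (mega) reads, of which 84.4 to 86.4% mapped. The mean read number was 52.8 ± 3.69 M in SS and 52.0 ± 5.68 M in SS.BN1 (SD, n = 6 each). The percent mapped was 85.85 ± 0.339 in SS and 85.3 ± 0.522 in SS.BN1 (SD, n = 6 each). By exact two-sided permutation of the strain labels, p was 0.784 for reads and 0.0584 for the percent mapped (0.784 and 0.117 adjusted over 3 library measures). Expression is given as FPKM, fragments scaled to transcript length and to library size, so that levels can be compared between genes, with 1 value per strain made by the authors, so no spread between animals stands beside it. The labelled segment was clear in its markers: Umod, which encodes uromodulin, stood at 8492 FPKM in SS.BN1 and 10174 in SS, and Slc12a1, the Na-K-2Cl cotransporter, at 2406 and 2571. A row was called when the authors' q was under 0.05.

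Among the collagen, laminin and nidogen rows, basement membrane chains held most of the FPKM. Their FPKM summed to 666 in SS.BN1 and 660 in SS, which was 92.8% and 91.4% of the total over all 55 rows. Fibrillar chains summed to 24.8 FPKM in SS.BN1 and 28.9 in SS, an order that turned (15.4 and 12.3) when Col3a1 was taken from its named isoform instead of its joined row. Other collagen chains summed to 26.9 and 32.8 FPKM, an order that turned (9.56 and 8.98) when types XV and XVIII were counted with the basement membrane. A mean of at least 1 FPKM over the strains was reached by 24 of the 55 rows: 15 of 18 basement membrane chains, 5 of 11 fibrillar chains and 4 of 26 other chains. Just inside that limit were Lama4 at a mean of 1.23 FPKM and Lamb3 at 1.36, and just outside it was Lama2 at 0.968. Among the 31 rows below it, none was tested by the authors, and 16 had a mean under 0.1 FPKM.

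**Figure D1:**
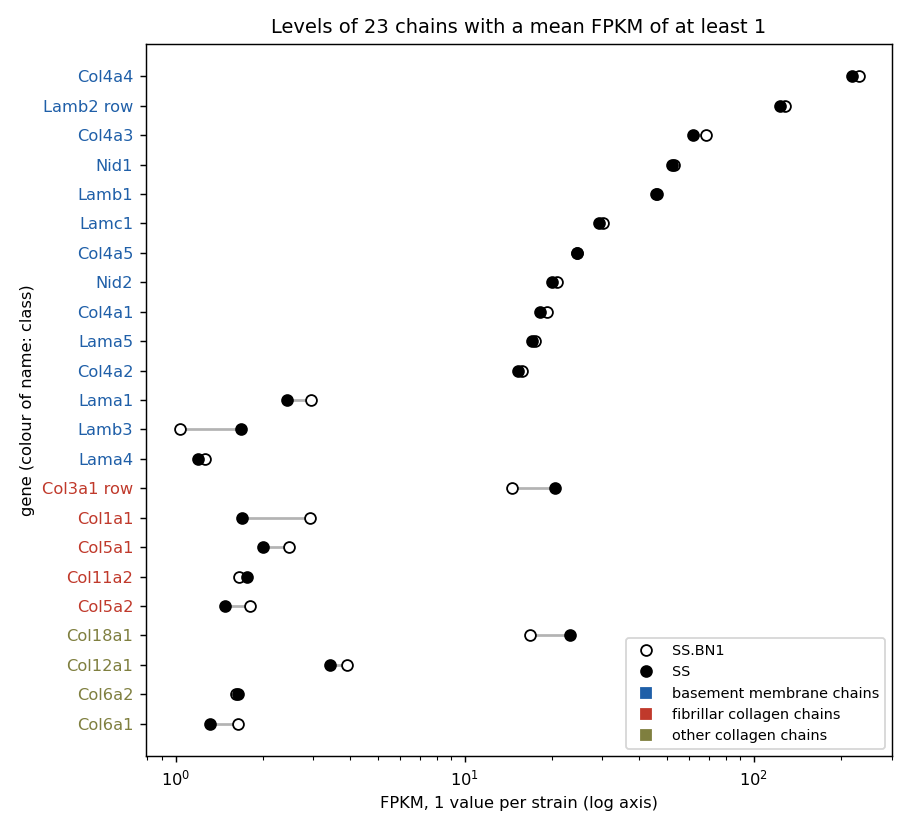
FPKM in SS.BN1 (open points) and SS (filled points) for 23 of the 24 chains with a mean of at least 1 FPKM, on a log axis, with names coloured by class. Basement membrane chains fill the upper range from Col4a4 down, and the points of most of these chains nearly coincide.

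Across the strains, 1 of the 23 tested members was called (4.35% of the tested members, against 3.42% of all tested rows in either direction). The members were therefore called about as often as any row of the table. The value was lower in SS for 16 of the 23 members, without regard to any test, beside 49.7% of all tested rows. After FPKM were rescaled without mitochondrial rows, which moved every log2 ratio alike by -0.11, it was lower for 19 of 23 members (Lamb1, Col11a2 and Col6a2 turned), beside 72.0% of all tested rows. The 22 tested members without a call had log2 ratios of SS over SS.BN1 between -0.78 and 0.71. No row of the whole table was called with a fold under 1.58, and 20 of the 23 tested members lay under that size. An unadjusted p under 0.05 in the authors' deposited table was found for 3 of 23 members, Col1a1 and Col18a1 among them, beside 7.55% of all tested rows. The median log2 ratio was -0.05 for the 14 tested basement membrane chains, -0.29 for the 5 fibrillar chains and -0.08 for the 4 other chains, beside 0.00125 for all tested rows.

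**Figure D2:**
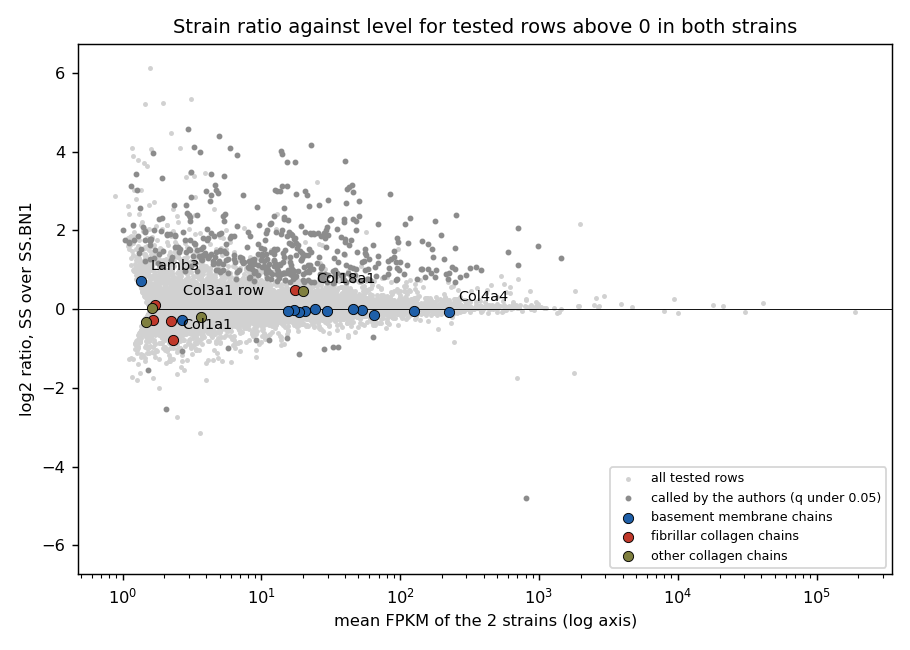
Log2 ratio of SS over SS.BN1 against the mean FPKM of both strains (log axis) for all tested rows with a value above 0 in both strains (light grey), the called rows (dark grey) and the 22 tested chains without a call (coloured by class). These chains lie between -0.78 and 0.71.

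Laminin chains were measured for each role in the trimer. Lamc1, the gamma 1 chain of most basement membrane laminins, stood at 30.1 FPKM in SS.BN1 and 29.1 in SS (q = 1.00 in the authors' deposited table). Lamc3, a further gamma chain, was low, at 0.624 and 0.521 FPKM, and was not tested.

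Lamb3, a beta chain of the laminin that anchors skin keratinocytes, was scarce. It stood at 1.03 FPKM in SS.BN1 and 1.69 in SS, a log2 ratio of 0.71 that was not called (p = 0.103, q = 1.00 in the authors' deposited table).

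The remaining beta chains were abundant and nearly level between strains. Lamb2, the beta chain of mature kidney basement membranes, had 128 FPKM in SS.BN1 and 123 in SS in a row that also holds the deubiquitinase Usp19. In that row the isoforms named Lamb2 summed to 63.5 and 61.5 FPKM, those named Usp19 to 5.29 and 7.04, and 13 unnamed isoforms to 59.4 and 54.7. The share of the unnamed isoforms that belongs to Lamb2 is not given, so the named sum is the lower estimate of its level. Lamb1, the beta chain better known from developing tissue, had 45.9 FPKM in SS.BN1 and 46.2 in SS. Neither was called (q = 1.00 for both in the authors' deposited table).

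Among alpha chains, Lama5, which is widespread in epithelial basement membranes, was the most abundant of the 4 measured, at 17.5 FPKM in SS.BN1 and 17.1 in SS. It was 76.9% and 79.1% of their summed FPKM. Lama1, typical of embryonic and some tubular basement membranes, followed at 2.94 and 2.43 FPKM (p = 0.211 in the authors' deposited table). Lama4, a chain of vessel walls, had 1.27 and 1.20 FPKM, and Lama2, known from muscle, 1.04 and 0.899. The 4 alpha chains summed to 22.7 FPKM in SS.BN1 and 21.6 in SS. No row carried a further alpha chain, such as Lama3, by symbol, so the shares of Lama5 leave any such chain out. The 3 beta chains summed to 175 and 171 FPKM with the whole joined Lamb2 row, and to 110.4 and 109 with Lamb2 from its named isoforms.

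**Figure D3:**
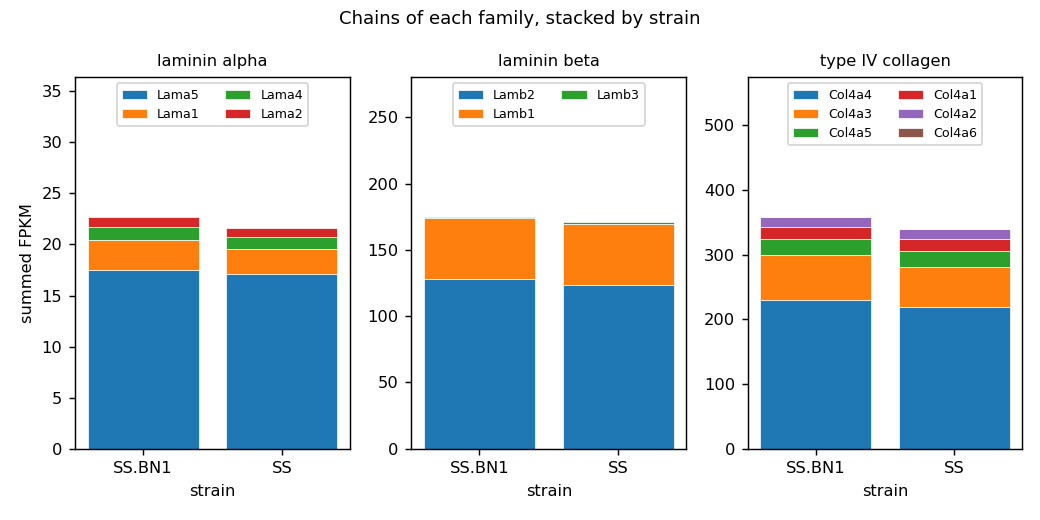
Summed FPKM of the laminin alpha and beta chains and of type IV collagen in each strain, stacked by chain, with a separate vertical axis per panel that starts at 0. The make-up of each panel is close to level between strains, with Lama5 at 76.9% of the alpha sum in SS.BN1 and 79.1% in SS.

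Type IV collagen was led by the chains of the alpha 3, alpha 4 and alpha 5 trimer. Col4a4 was the most abundant member, at 231 FPKM in SS.BN1 and 220 in SS, above 98.1% of all tested rows. Col4a3 had 68.4 and 61.7 FPKM, and Col4a5, on chromosome X, 24.5 in both strains. Together these 3 genes held 90.1% of type IV collagen FPKM in SS.BN1 and 90.0% in SS. None was called, with unadjusted p-values of 0.823, 0.770 and 0.999 in the authors' deposited table.

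The 3 chains of that trimer did not stand at equal levels. Col4a4 exceeded Col4a3 3.37-fold in SS.BN1 and 3.56-fold in SS, and exceeded Col4a5 9.41-fold and 8.96-fold. Col4a4 and Col4a3 were deposited with the same interval (chromosome 9, 88232455 to 88488279), and Col4a4 was split over 8 isoforms, of which the largest annotated one had 123 FPKM in SS.BN1 and 115 in SS. How reads were divided between these neighbours and isoforms was not tested. Podocytes are the glomerular cells that also make this trimer. Of 7 podocyte markers 3 were tested, all with the lower value in SS, and 1 was called, Podxl, which endothelium also expresses, lower in SS (19.0 FPKM in SS.BN1 against 11.4 in SS), beside 0.0981% of all tested rows called in that direction. The other tested markers were Cdkn1c, at 7.28 and 4.51 FPKM, and Ptpro, at 2.04 and 1.36. Among those not tested, Synpo stood at 0.763 FPKM in SS.BN1 and 1.22 in SS, Wt1 at 0.0433 and 0.0278, and Nphs1 at 0.00342 and 0.00798. The 7 markers summed to 29.1 FPKM in SS.BN1 and 18.5 in SS. Most of both sums was Podxl and Cdkn1c, while Wt1 and Nphs1 were near the floor. The part of podocytes in the type IV collagen values was not tested.

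Col4a1 and Col4a2, which encode the chains of the ubiquitous type IV trimer, were deposited as neighbours 0.002 kb apart on chromosome 16. Col4a1 had 19.3 FPKM in SS.BN1 and 18.3 in SS, and Col4a2 had 15.8 and 15.3, so that Col4a1 exceeded Col4a2 1.22-fold and 1.19-fold. Col4a6, whose product assembles with alpha 5, was near the floor at 0.313 and 0.344 FPKM. The nidogens were likewise level: Nid1 had 53.1 FPKM in SS.BN1 and 52.4 in SS, and Nid2 had 20.9 and 20.1. None of these was called, and the tested ones had unadjusted p-values of 0.703 or more in the authors' deposited table.

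Fibrillar collagen RNA was low, and its largest row was not mainly collagen by name. The Col3a1 row, which joins an unnamed locus (AABR07067556.1) to the type III collagen gene, had 14.6 FPKM in SS.BN1 and 20.5 in SS (q = 1.00 in the authors' deposited table). The isoform named Col3a1 had 5.29 FPKM in SS.BN1 and 3.88 in SS, while the isoform of the unnamed locus had 9.35 and 16.6. The row and the named isoform thus point in opposite directions, neither called. The order of the fibrillar sums given above depends on this row.

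Col1a1, the main chain of type I collagen, had 2.92 FPKM in SS.BN1 and 1.69 in SS, a log2 ratio of -0.78 that was not called (p = 0.0152, q = 0.278 in the authors' deposited table). Its partner Col1a2 was listed at 0.00527 FPKM in SS.BN1 and at 0 in SS, in a row with an interval of 623 kb, and whether that is a failed estimate was not tested. Col5a1 and Col5a2, the chains of the type V collagen that nucleates type I fibrils, had 2.48 and 1.81 FPKM in SS.BN1 and 2.01 and 1.48 in SS (p = 0.263 and 0.355 in the authors' deposited table). Col11a2, a type XI chain known from cartilage, had 1.66 and 1.77 FPKM. Of the 6 fibrillar chains below 1 FPKM the highest was Col11a1 at a mean of 0.589, and Col2a1, the cartilage collagen, was listed at 0 in both strains.

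Markers of stromal cells, among them cells that make fibrillar collagen, were measured beside these chains. Of 15 markers of fibroblasts, pericytes and smooth muscle, 10 were tested, none was called, and 1 had an unadjusted p under 0.05 in the authors' deposited table. Among all tested rows, 3.42% were called and 7.55% had such a p. The markers summed to 60.0 FPKM in SS.BN1 and 77.1 in SS, with a median log2 ratio of 0.15. Of the 10 tested, 6 had the higher value in SS: Tagln, Rgs5, Acta2, Des, Notch3 and Dcn. The other 4, Pdgfrb, Dpt, Thy1 and Cspg4, had the lower value in SS. The most abundant marker row was that of Tagln, joined with Sidt2, at 26.7 FPKM in SS.BN1 and 39.4 in SS (p = 0.0227, q = 0.374 in the authors' deposited table). This row is a large part of both sums, and how much of it belongs to Tagln was not tested. Among pericyte and smooth muscle genes, Rgs5 stood at 10.5 and 13.5 FPKM, Acta2 at 2.57 and 3.95 and Pdgfrb at 1.76 and 1.49. Among fibroblast genes, Dcn stood at 6.06 and 6.25 FPKM, Dpt at 2.34 and 1.55 and Pdgfra, in a joined row, at 0.887 and 0.785, while Lum was listed at 0.0136 and 0. Dcn and Lum are also on the list of interstitial matrix genes. Their part in the fibrillar values was not tested, and in whole tubules fewer cells of a type and less RNA per cell cannot be told apart.

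Among the other collagens, Col18a1 stood out. It encodes a basement membrane collagen with heparan sulphate chains from which endostatin is cut, and it had 16.8 FPKM in SS.BN1 and 23.3 in SS, a log2 ratio of 0.47 that was not called (p = 0.0232, q = 0.380 in the authors' deposited table). Each of its 3 isoforms had the higher value in SS, from 1.92 to 3.75, 6.83 to 7.85 and 8.09 to 11.7 FPKM, and none was called, beside 1.05% of all tested isoforms. Its relative Col15a1 had 0.512 and 0.582 FPKM. Col12a1, a collagen that binds to the surface of fibrils, had 3.92 FPKM in SS.BN1 and 3.43 in SS. Col6a1 and Col6a2, which form part of the beaded filaments of the interstitium, had 1.64 and 1.62 FPKM in SS.BN1 and 1.32 and 1.65 in SS. No row carried Col6a3, a further type VI chain, by symbol. The highest of the remaining chains under 1 FPKM was Col8a2, at a mean of 0.507, after Col15a1 at 0.547. Col17a1, the hemidesmosomal collagen of skin, had 0.101 and 0.205 FPKM and was not tested.

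**Figure D4:**
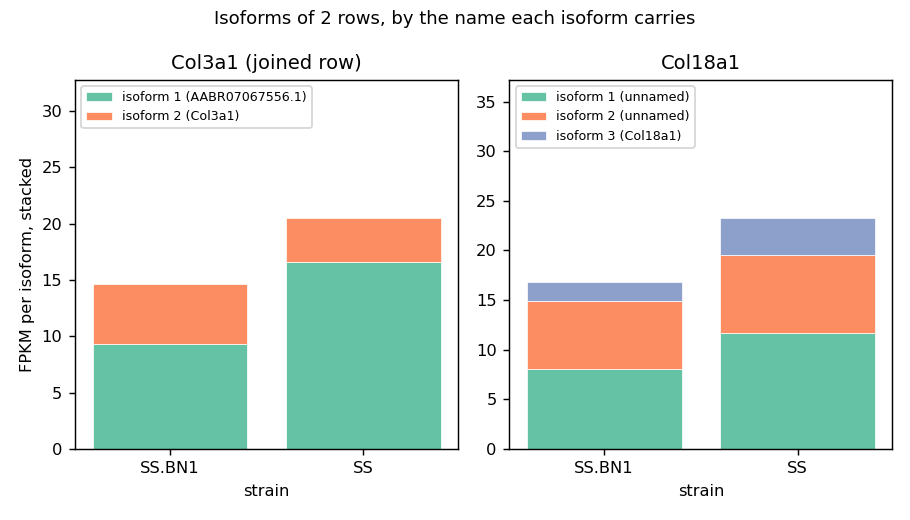
FPKM of each isoform, stacked by strain, for the rows of Col3a1 and Col18a1, with the name that each isoform carries, a separate vertical axis per panel that starts at 0, and isoforms near 0 left out. In the joined row of Col3a1 the isoform named Col3a1 has the lower FPKM in SS (3.88 against 5.29 in SS.BN1). The other one has the higher FPKM in SS, as do all 3 isoforms of Col18a1.

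Some markers of cells that lie beside the limb differed between strains. For comparison, 3.32% of all tested rows were called higher in SS and 0.0981% lower in SS. Of 8 tested proximal tubule markers, 7 were called higher in SS, and the 11 matched markers summed to 173 FPKM in SS.BN1 and 437 in SS, led by Kap at 120 and 290.3 FPKM. Of 12 tested endothelial markers, 1 was called, Tek, lower in SS, and 4 had an unadjusted p under 0.05 in the authors' deposited table. The value was lower in SS for 9 of the 12 and higher for 3, with a median log2 ratio of -0.29. The 14 matched markers summed to 227 FPKM in SS.BN1 and 180 in SS. Esam, the most abundant, had the higher value in SS (43.4 FPKM in SS.BN1 and 48.7 in SS). Collecting duct markers had 1 call of 6, Aqp2, lower in SS, and all 6 tested had the lower value in SS. Their median log2 ratio was -0.35, and 2 had an unadjusted p under 0.05 in the authors' deposited table. The 7 matched markers summed to 390 FPKM in SS.BN1 and 307 in SS, and Fxyd4 was their most abundant. Of 9 tested leukocyte markers the monocyte gene Cd14 alone was called (2.63 FPKM in SS.BN1 and 7.46 in SS), while 6 of the 9 had the lower value in SS, with a median log2 ratio of -0.27. Among these was Csf1r, at 13.5 FPKM in SS.BN1 and 7.89 in SS (p = 0.00475, q = 0.113 in the authors' deposited table). The leukocyte sums were 509 and 495 FPKM, most of it Cd74. Thick ascending limb markers had no call among 8 rows, none of which had an unadjusted p under 0.05 in the authors' deposited table. Over all tested rows, 3.42% were called in either direction and 7.55% had such a p. The part of the cells named here in the Col18a1 value was not tested.

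Receptors for laminin and collagen held 2 calls among 9 tested genes, both higher in SS, beside 3.32% of all tested rows called in that direction. Itga3, an integrin alpha chain that binds laminins, had 15.1 FPKM in SS.BN1 and 29.2 in SS, a 1.94-fold higher value (q = 0.00705 in the authors' deposited table). Itga6, another laminin-binding alpha chain, had 8.41 and 15.6 FPKM in a row joined with a small RNA (1.85-fold, q = 0.00902 in the authors' deposited table). Their beta partners were not called: Itgb1, the most abundant receptor, had 105 FPKM in SS.BN1 and 120 in SS, and Itgb4, the beta chain of hemidesmosomes, had 6.73 and 8.33. Cd44, a receptor for hyaluronan, had 6.91 and 13.5 FPKM (q = 0.0668 in the authors' deposited table), and the collagen receptor Ddr1 had 27.9 and 37.8 (q = 0.412 in the authors' deposited table). The receptors had a median log2 ratio of 0.31 over the 9 tested genes.

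Genes that fold, modify and cross-link collagen had 1 call among 17 tested, Loxl4, a lysyl oxidase that forms cross-links, higher in SS (5.88% of the list, near the 3.32% of all tested rows called in that direction). It had 7.33 FPKM in SS.BN1 and 17.4 in SS, a 2.38-fold higher value (q = 0.00266 in the authors' deposited table). Loxl4 lies on chromosome 1, the chromosome that was exchanged between these strains. P4hb, a subunit of prolyl hydroxylase and the most abundant gene of the list, had 212 and 225 FPKM. Serpinh1, the collagen chaperone, also on chromosome 1, had 85.4 and 95.7 FPKM. Over the 17 genes the median log2 ratio was -0.01. Plod2, a lysyl hydroxylase, had 81.6 and 63.3 FPKM and was not called (p = 0.0629 in the authors' deposited table).

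Partners of the basement membrane network had no call among 11 tested genes, and none had an unadjusted p under 0.05 in the authors' deposited table (median log2 ratio -0.05). Of all tested rows 3.42% were called and 7.55% had such a p, and a list this short cannot show a smaller share. Of 18 partners listed, 17 had a row by symbol, and Hspg2 was left out for want of one. Sparc, which binds collagen, was the most abundant of those measured, at 80.3 FPKM in SS.BN1 and 69.2 in SS. The proteoglycan agrin (Agrn) had 23.7 and 23.8 FPKM. Genes of the interstitial matrix had no call among 7 tested, 1 with an unadjusted p under 0.05 in the authors' deposited table, beside the same shares. Their median log2 ratio was 0.05. Bgn, the proteoglycan biglycan, led that list with 51.2 FPKM in SS.BN1 and 53.4 in SS, and fibronectin (Fn1) had 6.71 and 7.23.

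**Figure D5:**
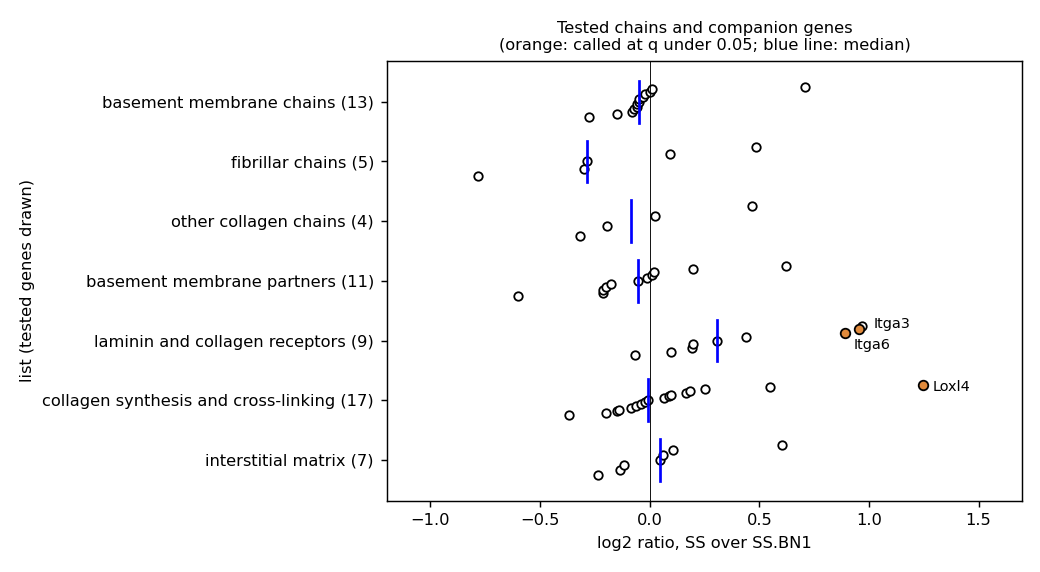
Log2 ratio of SS over SS.BN1 for 22 of the 23 tested chains, by class, and for the tested genes of the 4 companion lists, with called genes in orange and the median of the drawn points as a blue line. The 3 called genes drawn, Itga3, Itga6 and Loxl4, all lie to the right of 0, and the median of the receptors is 0.31.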

How the data were processed

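Stranded total-RNA libraries of single animals were sequenced in pairs, per the labels' protocols. The tools TopHat2 2.1.1, Cufflinks 2.2.1, StringTie, FastQC and cutadapt, and rn5 as a build, are credited to the submitters' processing notes, which leave their roles unsaid. The authors made the FPKM, a single value for a strain at each gene or isoform. Their way of combining libraries, and how far their p-values rest on variation between rats, are not given in the sources used here. Each row's p-value and q-value are the authors' deposited ones, laid out as Cuffdiff does, per the file headers; adjustment over the 13253 tested rows gave the q-values to within 5.27e-07. Read counts and percent mapped per library are deposited in a further table.

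Rows were matched by symbol, and all 55 members are in a RefSeq table of GRCr8, used for names only. Ratios are SS over SS.BN1 with no pseudocount. Rows joining several genes were kept. Coordinates are as deposited, with 1 added to the start; their build is not settled, since 6832 rows carry contig names (AABR07) of a later assembly. Members and lists were chosen with earlier results of these data known. The values of 1 called member and 1 podocyte marker are not reported here. Text names other members with a mean of at least 1 FPKM or a call, the next 3, the called and most abundant genes of companion lists, and the most abundant marker; further list genes, isoforms, low members and defining markers were named after their values were seen. A planned search for promoter motifs was not run, since no promoter sequences were used here. The adjustment was checked on simulated p-values. Strain means of library measures were set against all 924 assignments of libraries (exact permutation). Alternatives are listed in the closing section. Tables were computed with pandas 2.3.3 and NumPy 2.4.6 under Python 3.11.15, tests with SciPy 1.17.1, and figures with matplotlib 3.10.9.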

Additional observations from a re-analysis of the deposited data

Results flagged for a closer look

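Among the library measures, 1 of the 6 SS libraries stood apart in base quality, with 89.3% of bases at Q30 against 89.7 ± 0.23 over the strain (SD, n = 6). This library lay inside the range of both strains together, 88.76 to 89.95%. The gap to its nearest neighbour was 0.654 of the range in SS, and chance alone sets a sample apart this way in about 1 in 20 groups. Expression values per library were not analysed here, so its part in the FPKM of SS was not tested.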

How the results depend on the processing

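The count of called members was 1 at q under 0.01, with q recomputed over rows of at least 1 or 5 FPKM, without joined rows and at a fold of at least 2. The count of members at 1 FPKM or more was 18 to 30 at limits of 2 and 0.5, and 24 to 29 under the other definitions and scaling. Rescaling without mitochondrial rows moved every log2 ratio by -0.11. Class medians became -0.16 for basement membrane, -0.40 for fibrillar and -0.20 for other chains, and 19 instead of 16 of the 23 tested members had the lower value in SS, as Lamb1, Col11a2 and Col6a2 turned. The sums became 1274 and 1166 FPKM (basement membrane, SS.BN1 and SS), 47.4 and 51.1 (fibrillar), and 51.5 and 58.0 (other). A pseudocount of 1 gave a fibrillar median of -0.18. Counting types XV and XVIII with the basement membrane left other chains with a median of -0.19 and sums of 9.56 and 8.98 FPKM. With Col3a1 taken from its named isoform, chosen after seeing the data, the fibrillar sums were 15.4 FPKM in SS.BN1 and 12.3 in SS. The remaining 29 alternatives of class and library results, and all 37 of single members' q, kept their side of the threshold or stayed within tolerances of 0.1 log2 for medians and 1.5-fold for counts and sums. No paired analysis was possible because expression has 1 value per strain. For the same reason no library could be left out. No row of the table was called at a fold under 1.58.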
